A study of Mus musculus with 5 samples.

Results

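The Cyp2a, Cyp2b and Cyp3a xenobiotic genes were followed in hepatocyte nuclei of mouse liver as 8 cytochrome P450 genes (Cyp2a4, Cyp2a5, Cyp2a22, Cyp2b9, Cyp2b10, Cyp2b13, Cyp3a11 and Cyp3a25) and 2 nuclear receptors, Nr1i3 (CAR, the constitutive androstane receptor) and Nr1i2 (PXR, the pregnane X receptor). These 10 genes were taken by symbol from the 32285 rows of each matrix, and all 10 were found. Hepatocyte nuclei were those with at least 2000 unique molecular identifiers (UMIs, counted RNA molecules) and at least 1 UMI of Hnf4a, which encodes the hepatocyte nuclear factor, and 23267 of 57080 nuclei met this rule. The genes were chosen by their summed UMIs in these nuclei of the chow and MASH libraries, so their diet difference is described without a test. Tests are given for position along the liver lobule and for other genes of the pathway. The genes and lists were drawn up with earlier results of these libraries known and the zone comparison was part of the plan, so these tests are not independent of the choice.

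Single-nucleus RNA libraries came from male wild-type C57BL6/J mice. They had been fed regular chow (3 libraries) or a diet that causes metabolic dysfunction-associated steatohepatitis (MASH, 2 libraries), in which fat made up 40 kcal%, fructose 20 kcal% and cholesterol 2%. Feeding began at 10 to 12 weeks of age and lasted 5 months, and no allele or other agent differed between the groups. Nuclei were sorted by flow cytometry. The labels do not say whether a library was 1 mouse, so p-values measure the spread between libraries.

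Cytochrome P450 enzymes of these families oxidize drugs, plant compounds, steroids and other lipophilic substrates in the endoplasmic reticulum of hepatocytes, usually as the first step of clearance. CAR and PXR sense such compounds, pair with the retinoid X receptor on DNA and switch on overlapping sets of P450, conjugation and transport genes. Cyp2b10 is the classical target of CAR and Cyp3a11 that of PXR in mouse liver. Many P450 genes are expressed most strongly by pericentral hepatocytes, around the central vein, and several mouse genes of these families, Cyp2a4, Cyp2b9 and Cyp2b13 among them, are known as female-predominant.

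Hepatocyte nuclei numbered 4222 to 7006 in chow and 2611 to 2684 in MASH libraries, with median UMIs of 3871.5 to 5019.5 and 4870.5 to 5475, so the MASH values rest on fewer nuclei. None of 8 hepatocyte markers was at 0 in any library, but their summed level was 12352 to 18193 CPM (UMIs scaled to a common library total) in chow and 6600 to 7718 in MASH. Markers of stellate cells (86.8 to 133 CPM in chow, 252 to 283 in MASH), macrophages (51.6 to 70.4 and 144 to 265), cholangiocytes (35.5 to 78.2 and 265 to 451) and lymphocytes (8.12 to 22.2 and 180 to 184) summed higher in MASH hepatocyte nuclei, whereas endothelial markers overlapped (97.9 to 341 and 231 to 280). Of the 10 genes in each of these lists, at most 3 cholangiocyte and 2 lymphocyte markers were at 0 in a chow library, at most 1 macrophage marker in a MASH library, and no other marker in any library. Nuclei with UMIs of at least 2 markers of 1 such class made up 8.60% to 15.9% of chow and 42.0% to 53.5% of MASH hepatocyte nuclei. These lists include Themis and Spp1, and the shares were 8.39% to 15.8% and 33.2% to 40.9% without them. The part of other cell types in the results was not tested beyond leaving these nuclei out. Across libraries 23 to 48 barcodes were shared by a pair, at most 0.399% of the smaller library.

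Levels are CPM of each library's summed hepatocyte nuclei, after scaling of library totals by the trimmed mean of M-values (TMM). They are counts of 3′ tags, so levels are compared between libraries and not between genes. Of 15414 genes that passed the filter on low counts, 2117 were called between diets by edgeR's quasi-likelihood test at a Benjamini-Hochberg adjusted p under 0.05, which is 13.7% of genes (9.26% higher in MASH, 4.48% lower). With library totals in place of TMM, the median of all genes shifted from 0.00 to 0.33 on the log2 scale, and the calls split into 1706 higher and 334 lower in place of 1427 and 690. All 10 xenobiotic genes passed the filter, Cyp2a4 and Cyp2b13 only through the MASH libraries and Cyp2b10 only through the chow libraries. In 7 of the 10, the libraries of both diets did not overlap, a pattern found in 54.3% of all genes tested. Of these 7, 5 were higher in MASH (30.1% of all genes) and 2 were lower (24.2%). By the same test 4 of the 10 were called higher and 1 lower. The choice of genes used this contrast, so nothing is read from these counts, and all folds and log2 differences for the 10 genes between diets are descriptions.

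**Figure D1:**
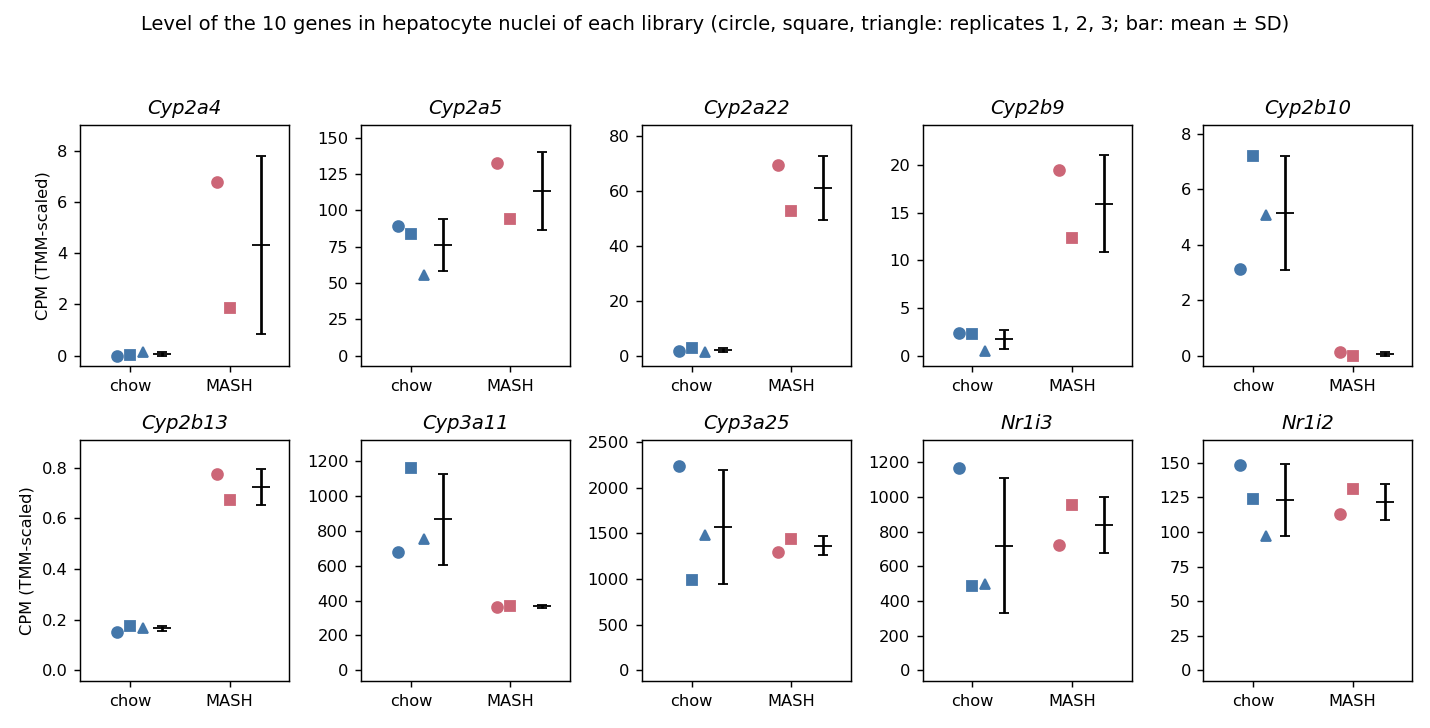
CPM (TMM-scaled) of each gene in the hepatocyte nuclei of the 3 chow (blue) and 2 MASH (red) libraries, with the mean ± SD as a black bar; each panel has its own linear axis. Cyp2a4, Cyp2a5, Cyp2a22, Cyp2b9 and Cyp2b13 lie higher in both MASH libraries, Cyp2b10 and Cyp3a11 lie lower, and Cyp3a25, Nr1i3 and Nr1i2 overlap.

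The receptor genes overlapped between diets. Nr1i3, on chromosome 1 (GRCm38, 171213970 to 171220701, plus strand), had 1167, 488 and 498 CPM in chow libraries 1 to 3 and 722 and 951 CPM in MASH libraries 1 and 2. Chow library 1 was the highest of all 5 and the other 2 chow libraries were the lowest. The log2 difference, MASH minus chow, was 0.22 ± 0.46 (SE), and it was 0.76 without chow library 1, -0.05 without chow library 2 and -0.05 without chow library 3. Nr1i3 overlaps Tomm40l on the opposite strand. Nr1i2, on chromosome 16 (38248323 to 38294824, minus strand), had 149, 124 and 97.0 CPM in chow and 113 and 131 CPM in MASH. Both MASH values fell inside the chow range, with a log2 difference of -0.02 ± 0.27 (SE) that was 0.28 with library totals.

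The Cyp3a pair differed. Cyp3a11, on chromosome 5 (145854426 to 145879964, minus strand), is the most studied drug-metabolizing Cyp3a enzyme of the mouse. It had 681, 1162 and 752 CPM in the chow libraries and 362 and 371 CPM in the MASH libraries. Both MASH libraries lay below every chow library, and the log2 difference was -1.24 ± 0.37 (SE), or -0.90 with library totals. Cyp3a25, its neighbor on chromosome 5 (145977194 to 146009618, minus strand), is another Cyp3a enzyme of adult liver. It had 2231, 990.1 and 1477 CPM in chow and 1292 and 1437 CPM in MASH. These ranges overlapped, with chow libraries 1 and 2 at the extremes, and the log2 difference of -0.20 ± 0.44 (SE) turned to 0.09 with library totals.

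The 3 Cyp2a genes lie in a cluster on chromosome 7. Cyp2a5 (26835305 to 26843548, plus strand) encodes the enzyme that hydroxylates coumarin and nicotine. Its levels were 89.1, 83.7 and 55.6 CPM in chow and 132 and 94.2 CPM in MASH, a log2 difference of 0.57 ± 0.29 (SE). Both MASH libraries lay above every chow library, MASH library 2 by little. Cyp2a4 (26307169 to 26315088, plus strand), which encodes a steroid hydroxylase, had 0, 1 and 4 UMIs in the chow libraries and 114 and 39 UMIs in the MASH libraries. These were 0, 0.0351 and 0.135 CPM in chow against 6.80 and 1.87 CPM in MASH, so the rise was seen in both MASH libraries and was larger in the first. The ratio of UMIs per library total was 89.0 (exact 95% interval 37.3 to 278, counting error only). Cyp2a22 (26931631 to 26939384, minus strand), a little-studied member of the family, had 46, 76 and 37 UMIs in chow and 1163 and 1096 in MASH. The levels of 1.76, 2.67 and 1.24 CPM rose to 69.3 and 52.7 CPM, a log2 difference of 5.01 ± 0.37 (SE).

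Cyp2a4 and Cyp2a5 are shown by sequence because the bases before their starts are nearly the same while their diet differences, given above, are far apart. Over the 250 bases before their RefSeq starts they were 97.6% identical, whereas Cyp2a5 and Cyp2a22 were 49.6% identical. The aligned stretches below end before the annotated transcript start, are from RefSeq on GRCm38.p6, and have in capitals the bases that differ.
Cyp2a4 (chr7:26306943-26307158, plus strand): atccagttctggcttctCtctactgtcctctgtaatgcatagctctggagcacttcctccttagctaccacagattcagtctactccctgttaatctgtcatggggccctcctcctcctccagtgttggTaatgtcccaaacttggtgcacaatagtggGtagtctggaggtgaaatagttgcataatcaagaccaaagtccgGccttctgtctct
Cyp2a5 (chr7:26835089-26835304, plus strand): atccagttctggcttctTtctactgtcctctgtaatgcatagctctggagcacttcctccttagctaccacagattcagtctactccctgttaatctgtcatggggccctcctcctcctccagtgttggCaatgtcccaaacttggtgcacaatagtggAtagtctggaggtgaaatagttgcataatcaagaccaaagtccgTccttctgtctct
Counted from 1 at the 5′ end, with the base of Cyp2a4 first, the 4 differences are C18T, T130C, G160A and G204T. Reads of these genes can also be confused. Of the 90-base windows in the last 500 bases of the coding transcripts, 10.5% in Cyp2a4 and 1.70% or 19.2% in Cyp2a5, depending on the transcript, also occur in another gene. The shared partners were each other and the pseudogene Cyp2a21-ps, which also overlaps Cyp2a22 on the opposite strand. The chow libraries held 6358 UMIs of Cyp2a5 beside 5 of Cyp2a4, and the MASH libraries 4179 beside 153. How many reads of Cyp2a4 could belong to Cyp2a5 was not tested. In the longest transcripts of the other 8 genes no such window was shared, and 1 transcript of Cyp3a25 shared 3.89%.

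The 3 Cyp2b genes, also on chromosome 7, went in different directions. Cyp2b10 (25897620 to 25926624, plus strand), the CAR target, had 81, 205 and 151 UMIs in chow and 2 and 0 UMIs in MASH. This was 3.11, 7.21 and 5.08 CPM in chow against 0.119 and 0 CPM in MASH, with every MASH library below every chow library. The ratio of UMIs per library total, chow over MASH, was 75.2 (exact 95% interval 20.7 to 623, counting error only). Cyp2b9 (26173411 to 26210661, plus strand), a female-predominant enzyme, had 61, 64 and 15 UMIs in chow and 327 and 256 in MASH. Its levels were 2.34, 2.25 and 0.505 CPM in chow and 19.5 and 12.3 CPM in MASH, a log2 difference of 3.23 ± 0.59 (SE). Cyp2b13 (26061497 to 26096197, plus strand), the closest relative of Cyp2b9 by the sequence before its start and likewise female-predominant, had 4, 5 and 5 UMIs in chow and 13 and 14 in MASH. Both were low, at 0.153, 0.176 and 0.168 CPM and 0.775 and 0.673 CPM, and the ratio of UMIs per library total was 5.61 (exact 95% interval 2.84 to 11.6, counting error only).

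The sequences before the 3 Cyp2b starts are shown because the genes with near-identical letters were both higher in MASH and Cyp2b10 was lower. Cyp2b9 and Cyp2b13 were 99.2% identical over 250 bases, and each was 70% identical to Cyp2b10. Capitals mark AGGTCA, searched on both strands, a hexamer that nuclear receptors bind.
Cyp2b9 (chr7:26173159-26173408, plus strand): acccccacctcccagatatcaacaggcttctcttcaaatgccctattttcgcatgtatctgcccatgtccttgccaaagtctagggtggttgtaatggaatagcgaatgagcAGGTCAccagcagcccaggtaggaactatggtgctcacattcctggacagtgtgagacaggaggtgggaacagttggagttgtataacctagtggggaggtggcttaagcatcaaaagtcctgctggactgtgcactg
Cyp2b13 (chr7:26061245-26061494, plus strand): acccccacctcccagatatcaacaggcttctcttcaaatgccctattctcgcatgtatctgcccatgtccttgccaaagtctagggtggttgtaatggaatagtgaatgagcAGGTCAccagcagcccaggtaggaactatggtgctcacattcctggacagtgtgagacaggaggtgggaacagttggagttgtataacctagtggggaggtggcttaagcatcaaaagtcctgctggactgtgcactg
Cyp2b10 (chr7:25897408-25897619, plus strand): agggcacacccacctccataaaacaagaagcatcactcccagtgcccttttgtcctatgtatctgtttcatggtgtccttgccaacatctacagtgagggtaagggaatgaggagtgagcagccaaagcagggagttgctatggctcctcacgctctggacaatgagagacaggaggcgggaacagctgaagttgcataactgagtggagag
Cyp2b9 and Cyp2b13 differ at T48C and C104T, counted from the 5′ end with the base of Cyp2b9 first. In the 250 bases before the RefSeq start, AGGTCA had 1 match in Cyp2b9 and 1 in Cyp2b13, 138 bases before the start in each, 1 in Cyp3a11, 2 in Cyp3a25, and none in Cyp2b10, the 3 Cyp2a genes, Nr1i3 and Nr1i2. It was present in 14.0% of 32851 mouse promoter stretches of this length. A match or its absence is only a description of the letters, and sequence further upstream was not searched.

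Next, the zonation of the 10 genes was compared between the ends of the lobule. Each library's hepatocyte nuclei were ranked by a score of 8 pericentral genes (such as Glul, the glutamine synthetase of hepatocytes around the central vein) minus 8 periportal genes (such as Hal, a histidine-degrading enzyme), none of them among the 10, and split into 3 equal zones, periportal, middle and pericentral. Summed counts of the pericentral and periportal zones were compared within libraries by edgeR's quasi-likelihood test over 14084 genes, without the score genes. Between 16% and 18.3% of nuclei lay within 0.1 SD of a boundary, so the zones are ranges of a score. Median depth per nucleus was 3726 to 5181 UMIs in the periportal and 4106 to 5611.5 UMIs in the pericentral zone, and was higher in the pericentral zone of all 5 libraries. Genes outside the score followed it. Rgn, Cyp1a2 and Axin2, of pericentral nuclei, were called higher and Uroc1 and Cps1, of periportal nuclei, lower in the pericentral zone in both diets, and periportal Ctsc was called lower in chow (log2 -2.69 ± 0.28 (SE), adjusted p = 6.63e-05) but not in MASH (-0.98 ± 0.40, adjusted p = 0.191).

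Cyp2b13 passed the filter on low counts only through the pericentral zone in MASH, where it was high, so it is described without a test. Of the other 9 genes, 6 were called higher in the pericentral zone and 0 lower in chow, where 21.9% of all genes were called (11.6% higher, 10.3% lower). In MASH 6 were called higher and 0 lower, where 7.02% of all genes were called (3.73% higher, 3.29% lower). Cyp2a5, Cyp2a22, Cyp2b9, Cyp3a25 and Nr1i3 were called in both diets, Cyp2b10 in chow and Cyp3a11 in MASH. The genes were chosen with earlier results known and the zone comparison planned, so nothing is read from these counts. The zone p-values of these genes, here and below, are likewise not independent of the choice. Nr1i3 was among the clearest. It rose from 308 ± 109 CPM in the periportal zone to 1152 ± 667 CPM in the pericentral zone in chow (SD, n = 3) and from 408 ± 149 to 1413 ± 164 CPM in MASH (SD, n = 2). The log2 differences were 1.81 ± 0.13 (SE, adjusted p = 6.39e-06) and 1.82 ± 0.16 (SE, adjusted p = 8.23e-05), and their own difference was 0.01 ± 0.20 (SE, adjusted p = 0.990). Nr1i2 was not called, with log2 differences of 0.24 ± 0.09 (SE, adjusted p = 0.0882) in chow and 0.27 ± 0.12 (SE, adjusted p = 0.221) in MASH. It was higher in the pericentral zone of all 5 libraries, and it was called in chow without chow library 1 (adjusted p = 0.0208) and in MASH without chow library 3 (adjusted p = 0.0359).

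The Cyp2a genes were steeply pericentral apart from Cyp2a4. Cyp2a5 rose from 28.3 ± 11.1 to 144 ± 42.0 CPM in chow (SD, n = 3) and from 35.6 ± 9.07 to 241 ± 38.2 CPM in MASH (SD, n = 2), with log2 differences of 2.33 ± 0.19 (SE, adjusted p = 1.19e-05) and 2.76 ± 0.24 (SE, adjusted p = 6.71e-05). The zone difference itself was not called different between diets (0.43 ± 0.30, adjusted p = 0.556), but without chow library 1 it was (0.82, adjusted p = 0.000538). Cyp2a5 in hepatocyte nuclei was 0.551 to 1.24 times its level in nuclei of other classes in chow. The part of free RNA in its zone values was not tested. Cyp2a22 rose from 0.399 ± 0.385 to 3.97 ± 1.40 CPM in chow and from 27.0 ± 7.19 to 110.0 ± 19.1 CPM in MASH, with adjusted p = 0.00021 and 1.65e-05. The periportal zone in MASH thus held more Cyp2a22 than the pericentral zone in chow. Cyp2a4 showed no such order in MASH, with 40 periportal, 40 middle and 34 pericentral UMIs in MASH library 1 and 8, 22 and 9 in MASH library 2 (log2 -0.15 ± 0.36, adjusted p = 0.884). Its 5 UMIs in chow were too few to show a gradient.

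Cyp2b9 was found mostly in pericentral nuclei in the chow libraries, with 124 UMIs in the pericentral, 15 in the middle and 1 in the periportal zones. The ratio of pericentral to periportal UMIs was 114 (exact 95% interval 20.1 to 4534, counting error only) in chow and 11.4 (8.21 to 16.1) in MASH, where 458, 85 and 40 UMIs were found. The zone effect was called in chow (adjusted p = 9.98e-06) and in MASH (log2 3.49 ± 0.20 (SE), adjusted p = 7.62e-06). The fitted zone effects differed by -2.75 ± 0.79 (SE) between diets, which did not pass the test (adjusted p = 0.110), and by -2.03 without chow library 1 and -4.28 without chow library 2. Cyp2b13 had 12 pericentral, 2 middle and 0 periportal UMIs in chow, with an exact 95% lower limit of 2.55 on the ratio of pericentral to periportal UMIs. In MASH it had 24, 2 and 1 UMIs, a ratio of 23.8 (exact 95% interval 3.88 to 979, counting error only). Cyp2b10 was higher in the pericentral zone of each chow library, at 6.78 ± 1.82 against 3.89 ± 2.80 CPM (SD, n = 3; log2 0.85 ± 0.26 (SE), adjusted p = 0.0431). This call was lost without chow library 1 (adjusted p = 0.0634), chow library 3 (0.246), MASH library 1 (0.0513) or MASH library 2 (0.0527). The 2 UMIs in MASH were 1 periportal and 1 middle, which gives no order.

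Cyp3a11 was the 1 of these 9 genes whose zone difference was called different between diets, where 2.33% of all genes were (1.03% higher in MASH, 1.3% lower). In chow it was flat, at 852 ± 278 CPM periportal, 819 ± 273 CPM middle and 910 ± 219 CPM pericentral (SD, n = 3; log2 0.11 ± 0.09 (SE), adjusted p = 0.467). In the MASH libraries the periportal zones held 248 and 201 CPM, the middle zones 311 and 354 CPM, and the pericentral zones 530 and 560 CPM. The zone effect in MASH was 1.27 ± 0.12 (SE, adjusted p = 0.000107) and exceeded that in chow by 1.16 ± 0.15 (SE, adjusted p = 0.00419). Without MASH library 2 the difference of 1.0 was no longer called (adjusted p = 0.115). The log2 difference between diets, as a description, was -1.90 in the periportal, -1.28 in the middle and -0.71 in the pericentral zone. Cyp3a11 in hepatocyte nuclei was 0.360 to 0.749 times its level in nuclei of other classes in chow, and 0.541 to 1.24 times in MASH. The part of free RNA, taken up in droplets, in these zone values was not tested. Cyp3a25 was slightly higher in the pericentral zone in chow (log2 0.32 ± 0.08 (SE), adjusted p = 0.0118) and in MASH (0.59 ± 0.10 (SE), adjusted p = 0.00338), and its zone effects were not called different (0.27 ± 0.12, adjusted p = 0.334). The call for Cyp3a25 in MASH was lost without MASH library 1 (adjusted p = 0.224) or 2 (0.0683).

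**Figure D2:**
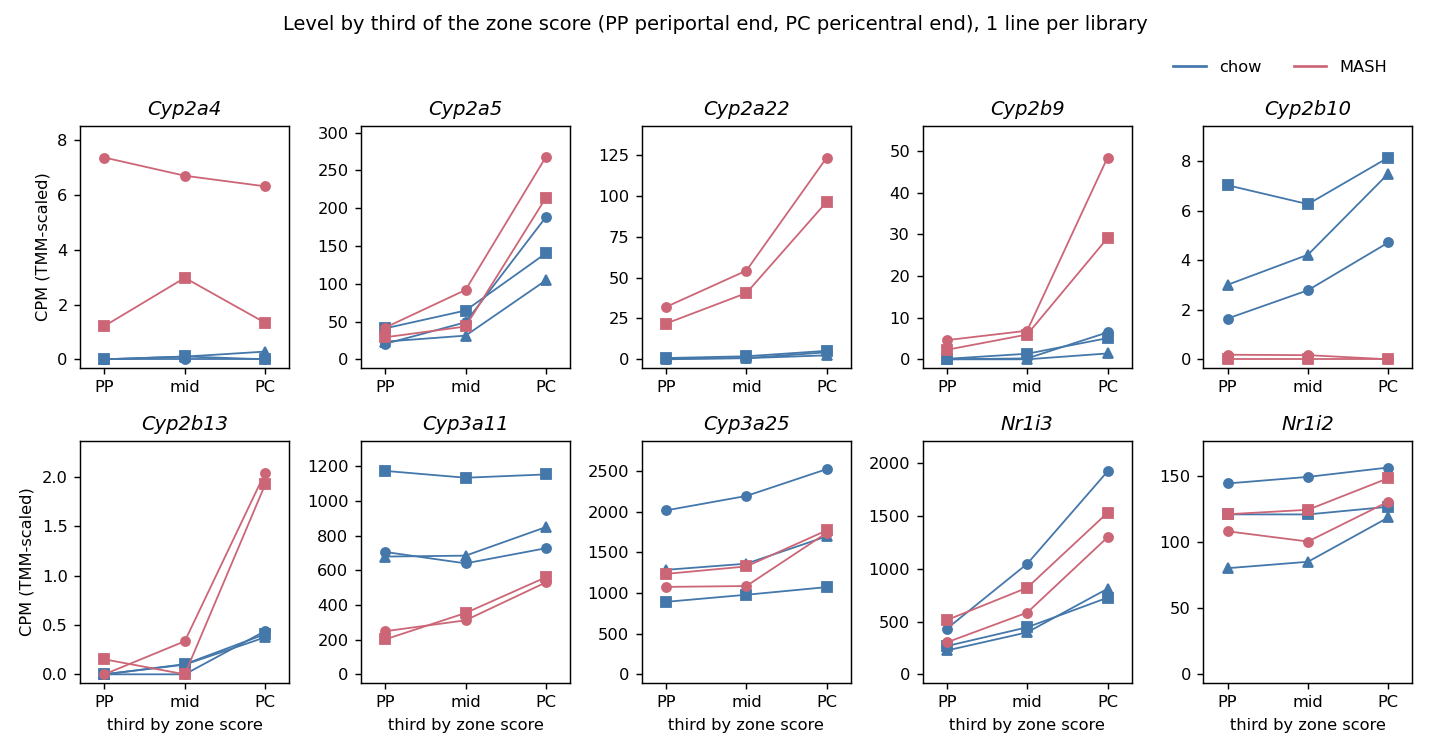
CPM (TMM-scaled, linear axes) of each gene in the periportal (PP), middle (mid) and pericentral (PC) zone of hepatocyte nuclei, 1 line per chow (blue) or MASH (red) library. Nr1i3, Cyp2a5, Cyp2a22 and Cyp2b9 are highest in the pericentral zone in all 5 libraries, and Cyp3a11 climbs from 201 to 248 CPM to 530 to 560 CPM in MASH but stays nearly level in chow.

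How much of each signal lay outside hepatocytes was then read in nuclei with no Hnf4a UMI and at least 3 markers of endothelial cells, stellate cells or macrophages, called endothelial-like, stellate-like and macrophage-like. RNA of hepatocyte genes found there can be free RNA taken up in droplets. These values are CPM of summed nuclei without TMM scaling, in 15 combinations of library and class. Nr1i3, Nr1i2 and Cyp3a25 were higher in hepatocyte nuclei in all 15, by 1.56 to 4.85, 1.74 to 6.62 and 1.90 to 3.34 times. Cyp3a11 was not. In the chow libraries its level in the 3 other classes, 994 to 2936 CPM, exceeded that of the same library's hepatocyte nuclei in all 9 combinations, with hepatocyte-to-class ratios of 0.360 to 0.749, and in MASH the ratios were 0.541 to 1.24. Alb, the albumin gene, had ratios of 0.333 to 0.917 over all 15. Outside hepatocytes Cyp3a11 was likewise lower in MASH, at 357 to 741 CPM, so its diet difference was present in both kinds of nuclei, and the part of free RNA in the hepatocyte values was not tested. Cyp2a5 had ratios of 0.551 to 1.24 in chow and 1.54 to 4.86 in MASH, and the part of free RNA in its hepatocyte values was not tested.

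At a matched depth of 500 UMIs per nucleus, Cyp3a11 was expected in 26.1% to 43.8% of hepatocyte nuclei and 47.3% to 75.3% of the other nuclei in chow, and in 18.1% to 18.6% and 16.9% to 30.3% in MASH. The share in chow hepatocyte nuclei was thus below the background set by the other classes in each chow library. The median depth of the other classes was 954.5 to 1208 UMIs in chow and 1160.5 to 1298 in MASH. Cyp2b10 was also below that background in each chow library, at 0.161% to 0.355% against 0.248% to 0.534%. Its 24 UMIs in the other classes of chow show that its low level was not restricted to hepatocyte nuclei. Cyp2a5 was expected in 2.16% to 4.39% of hepatocyte and 3.71% to 6.63% of other nuclei in chow. Its share was higher in hepatocyte nuclei in 1 of the 3 chow libraries. In MASH its shares were 4.32% to 6.31% and 1.30% to 2.89%, higher in hepatocyte nuclei of both libraries. In MASH library 2 Cyp2b10 was found in 0 of 2611 hepatocyte nuclei, which allows a share of nuclei with a UMI of up to 0.115% and sets no limit on nuclei that express the gene. Nr1i3 was expected in 14.9% to 39.0% of hepatocyte and 2.79% to 10.3% of other nuclei in chow, and in 27.3% to 36.2% and 7.04% to 7.77% in MASH. Cyp2a22 was found in 2.97% to 3.61% of hepatocyte and 0.678% to 0.988% of other nuclei in MASH, and in chow its share of 0.0535% to 0.107% overlapped the background of 0.00344% to 0.123%. Cyp2b9 in MASH was at 0.75% to 1.08% of hepatocyte nuclei against 0.15% to 0.202% of the others. Cyp2b13 had no UMI in the other classes. In chow library 1, however, its level in hepatocyte nuclei was 0.168 CPM, and 3 UMIs in a class would be 3.11 to 20.8 CPM. Its absence from the other classes in chow thus does not show restriction to hepatocyte nuclei.

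**Figure D3:**
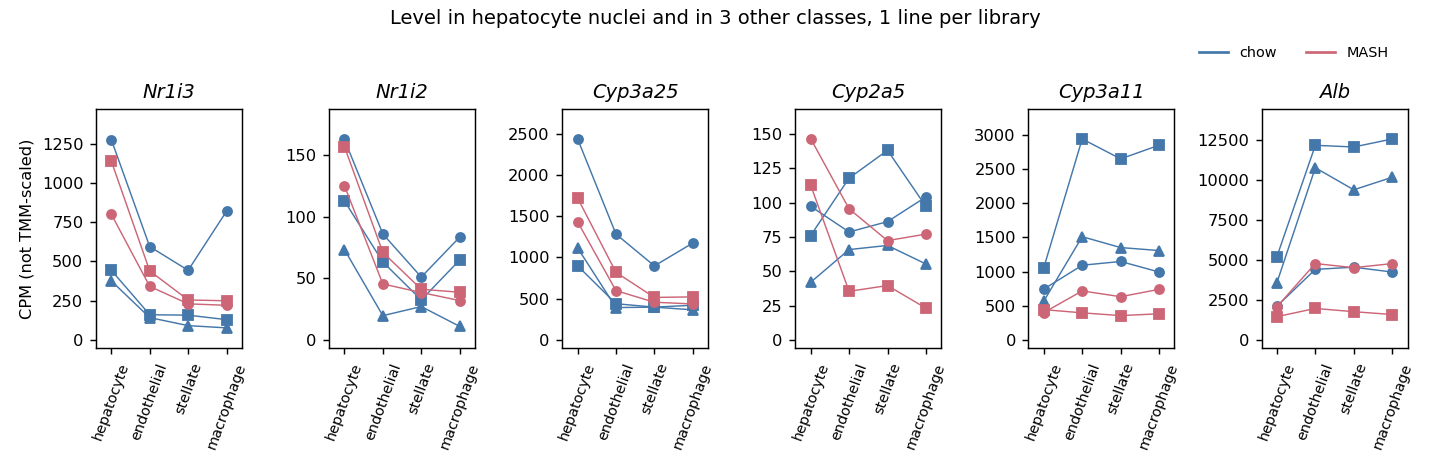
CPM (without TMM scaling, linear axes) of 5 of the genes and of Alb in hepatocyte nuclei and in endothelial-like, stellate-like and macrophage-like nuclei, 1 line per chow (blue) or MASH (red) library. Nr1i3, Nr1i2 and Cyp3a25 drop outside hepatocyte nuclei in every library, whereas Cyp3a11 is higher outside them in every chow library.

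At the depth of 2000 UMIs, to which every hepatocyte nucleus could be thinned, Cyp2a22 was found in 0.171% to 0.4% of chow and 11% to 12.3% of MASH hepatocyte nuclei (0.85% ± 0.304 and 24.9% ± 0.583 without thinning, SD over libraries). Nr1i3 was found in 34% ± 11.7 of periportal and 75.0% ± 18.4 of pericentral nuclei in chow (SD, n = 3), and in 42.2% ± 9.94 and 85.4% ± 4.21 in MASH (SD, n = 2). Cyp3a11 was found in 73.9% ± 11.1 of periportal and 74.4% ± 10.4 of pericentral nuclei in chow, and in 37.1% ± 4.41 and 61.2% ± 0.697 in MASH.

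Within the MASH libraries, nuclei with at least 2 of the 6 genes Nrg1, Anxa2, Gdf15, Sox4, Klf6 and Jun, which mark disease-associated hepatocytes, were set beside nuclei with none of them at the same depth of 2000 UMIs (908 and 861 nuclei in MASH library 1, 773 and 904 in MASH library 2). Nr1i3 was lower in the nuclei with 2 or more, at 0.761 and 0.717 times the level of the others in libraries 1 and 2. Cyp2b9 was at 0.627 and 0.38 times, Cyp3a25 at 0.796 and 0.819 times, and Cyp2a5 at 0.805 and 0.78 times. Cyp3a11 was at 0.828 and 0.928 times. Cyp2a4 was at 1.17 and 1.17 times, from 21 and 17 UMIs in library 1 and 3 and 3 in library 2, and Cyp2b13 had 2 UMIs against 1 in each library. Nr1i2 (0.908 and 1.06) and Cyp2a22 (0.78 and 1.03) went opposite ways in the 2 libraries. The nuclei with 2 or more of these genes were less often in the pericentral zone (29.3% and 29.1% against 37.4% and 35.4%). The parts of zone and of other cell types in these ratios were not tested.

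The genes most like 4 of the members were listed by Pearson's r of log2 CPM over the 15 sums of library and zone. The sums share libraries and depth, and r is a description. For Cyp2a5 they included Glul (r = 0.966) and Gstm2, a glutathione transferase (0.932). Nr1i3 was followed by 1700080G11Rik (0.956), Rmdn2 (0.944) and Gngt1 (0.939). Cyp3a11 was followed by Hsd17b7, of sterol synthesis (0.963), Chp1 (0.950) and Eci2, of fatty acid oxidation (0.948). Cyp2b10 was followed by Ugt2b37, a glucuronosyltransferase (0.993), Rbm8a (0.981) and Eif5 (0.971), with most of its range between the diets. Among the members, Nr1i3 had r = 0.790 with Cyp2a5, 0.665 with Cyp2b9, -0.18 with Cyp2b10 and 0.00 with Cyp3a11.

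The rest of the pathway was tested between diets in the same hepatocyte nuclei. Of 10 other genes of the Cyp2a, Cyp2b and Cyp3a families, 4 passed the filter and 1 was called higher, beside 9.26% of all genes. Cyp3a57, a further Cyp3a enzyme, had 0, 0 and 1 UMI in chow and 56 UMIs in the 2 MASH libraries (0, 0 and 0.0336 CPM against 1.07 and 1.83 CPM, edgeR adjusted p = 0.00733, or 0.0652 without MASH library 2). Its ratio of UMIs per library total was 163 (exact 95% interval 28.0 to 6543, counting error only). Cyp3a57 passed the filter on low counts only through the MASH libraries, where it was high, so nothing is read from its call. Cyp3a13, known from gut as well as liver, had 169, 84.7 and 244 CPM in chow and 61.2 and 63.8 CPM in MASH (log2 -1.41 ± 0.43 (SE), adjusted p = 0.0673), and it passed without chow library 2 (adjusted p = 0.0382). Cyp2a12 (0.29 ± 0.36, adjusted p = 0.601) and Cyp3a59 (0.56 ± 0.81, adjusted p = 0.664) were not called, although Cyp3a59 was without chow library 1 (log2 2.08, adjusted p = 0.0227). Cyp3a16, Cyp3a41b and Cyp3a44 had 0 UMIs in all libraries and Cyp3a41a had 2, both in chow. Cyp2b19 and Cyp2b23 also had 0.

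Of all genes tested, 9.26% were called higher and 4.48% lower, with a median log2 difference of 0.00. Among 18 partners, cofactors and retention factors of the receptors, 0 were called higher and 1 lower, with a median of -0.40. The 1 was Egfr, the epidermal growth factor receptor, whose signal is known to keep CAR in the cytoplasm, at 668, 1960 and 2185 CPM in chow and 74.5 and 106 CPM in MASH (log2 -4.15 ± 0.64 (SE), adjusted p = 0.00979). Its call was lost without MASH library 1 (adjusted p = 0.0950) or 2 (0.0769), each of which leaves 1 MASH library. Of 8 electron donors and heme supply genes (median -0.42), 1 was called lower. This was Alas1, the rate-limiting enzyme of heme synthesis, at 1190, 3695 and 1306 CPM in chow and 372 and 478 CPM in MASH (log2 -2.28 ± 0.61 (SE), adjusted p = 0.0462). The call was also lost without chow library 2 (log2 -1.61, adjusted p = 0.0589), MASH library 1 (0.292) or MASH library 2 (0.239), and with library totals (0.0658).

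Other phase 1 enzymes were called lower in 8 of 29 and higher in 1 (median -0.05), beside 4.48% of all genes called lower and 9.26% higher. Cyp2c54 (log2 -4.43 ± 0.44 (SE), adjusted p = 0.00303), Cyp2c29 (-3.88 ± 0.41, adjusted p = 0.00346) and Cyp2c70 (-3.39 ± 0.68, adjusted p = 0.0206) fell the most, all P450 enzymes of the Cyp2c family. Cyp2c29 went from 187, 355 and 302 CPM in chow to 22.5 and 15.7 CPM in MASH. Of 39 phase 2 conjugating enzymes, 7 were called lower and 2 higher (median -0.41). The largest falls were in Ugt2b38 (-6.42 ± 0.51, adjusted p = 0.00185) and Ugt2a3 (-2.38 ± 0.40, adjusted p = 0.0127), which are glucuronosyltransferases, and Sult2a8 (-3.72 ± 0.82, adjusted p = 0.0271), a bile acid sulfotransferase. Sult2a8 had 962, 296 and 139 CPM in chow and 37.3 and 33.4 CPM in MASH, and its log2 difference was -2.63 without chow library 1 (adjusted p = 0.0171). That of Ugt2b38 was -7.18 without MASH library 1. Of 16 drug transporters (median 0.44), Slco1a1, an organic anion uptake carrier, was called lower (-3.65 ± 0.41, adjusted p = 0.00413) and Abcb1a, an efflux pump, higher (2.85 ± 0.39, adjusted p = 0.00729). Cyp2c54, Cyp2c29, Ugt2b38 and Slco1a1 were called under all 17 alternatives tried. Ugt2b38 passed the filter on low counts only through the chow libraries, where it was high, so its call is not independent of the filter. Cyp2c70 and Sult2a8 lost their calls without chow library 2 (adjusted p = 0.0576 and 0.0601), and Cyp2c70, Sult2a8, Ugt2a3 and Abcb1a lost theirs without MASH library 1 (0.152, 0.160, 0.110 and 0.0739) or 2 (0.142, 0.175, 0.113 and 0.0602).

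Because Cyp2a4, Cyp2b9 and Cyp2b13 are female-predominant, lists of other sex-biased liver genes were set beside them. Of 12 male-predominant genes all 12 were tested, and 9 were called lower and 0 higher (median -3.03), beside 4.48% and 9.26% of all genes. Cyp7b1, an oxysterol hydroxylase, went from 274, 402 and 471 CPM in chow to 15.4 and 13.9 CPM in MASH (log2 -4.71 ± 0.38 (SE), adjusted p = 0.00185) and was called under all 17 alternatives. Hsd3b5, a steroid dehydrogenase of male liver, had 4148 UMIs in chow and 3 in MASH (54.4, 85.8 and 9.72 CPM against 0.179 and 0 CPM, adjusted p = 0.00896, or 0.0557 without MASH library 2). This list shares genes with the enzyme and transporter lists above, Ugt2b38 and Slco1a1 among them, so the counts of these lists overlap. Of 19 female-predominant genes 10 were tested, of which 2 were called higher and 1 lower (median 0.21). Prom1 (log2 3.88 ± 0.82 (SE), adjusted p = 0.0241) and Abcd2, a peroxisomal transporter (2.36 ± 0.37, adjusted p = 0.0105), rose, and Cyp2c40 fell from 573 UMIs in chow to 2 in MASH (2.72, 16.3 and 1.24 CPM against 0.0596 and 0.0481 CPM, adjusted p = 0.0304). These 3 calls were lost without MASH library 1 (adjusted p = 0.0633, 0.0590 and 0.158) or 2 (0.232, 0.0859 and 0.175), and that of Prom1 also without chow library 2 (0.0746). The log2 difference of Prom1 was 4.97 without chow library 3 and 2.94 without MASH library 2. Markers of other cell types summed higher in these MASH nuclei, as given above, and Prom1 is also expressed by cholangiocytes. Prom1 passed the filter on low counts only through the MASH libraries, and Cyp2c40, Hsd3b5 and Ugt2b38 only through the chow libraries. Each was high there, so these calls are not independent of the filter. All libraries are labelled male.

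**Figure D4:**
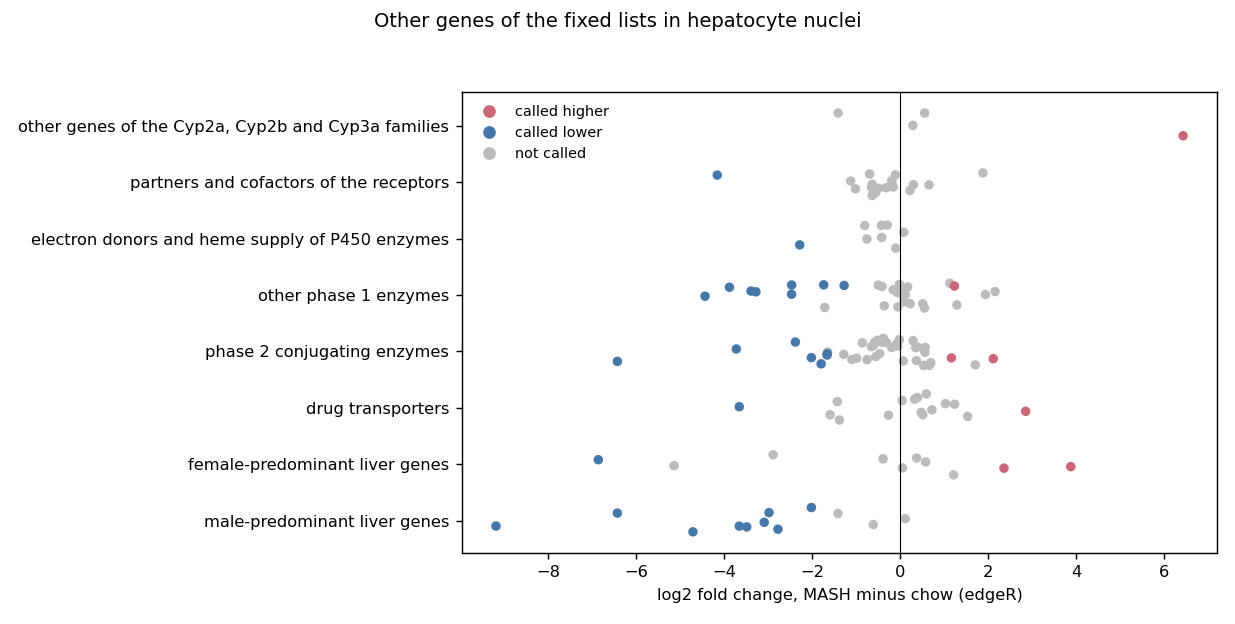
Log2 fold change, MASH minus chow (edgeR, linear axis of log2 values), of each tested gene of the 8 lists in hepatocyte nuclei; red points were called higher, blue lower and gray not called at an adjusted p under 0.05. Blue points gather among male-predominant genes (9 of 12), other phase 1 enzymes (8 of 29) and phase 2 enzymes (7 of 39). The lists share some genes.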

How the data were processed

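The deposited matrices hold UMI counts per gene and nucleus. Per the labels and methods, nuclei were sorted, made into 10x 3′ libraries and counted with Cell Ranger 8.0.1 on GRCm38, with intronic reads excluded. Counts were summed per library over hepatocyte nuclei (at least 2000 UMIs and 1 Hnf4a UMI) and tested with edgeR 4.0.16 in R 4.3.3 (quasi-likelihood, filterByExpr, TMM, Benjamini-Hochberg over all genes tested, two-sided, called under 0.05). SE is the absolute log2 fold change divided by the root of F. Zone fits had the library as a block. Total counts were 35612373 to 49137377 UMIs per library, and intervals and floors cover counting error only. Doublets were not removed by a caller, and nuclei with 2 markers of another class were left out in an alternative. The scripts were tested on simulated data.

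Members and gene lists were chosen with earlier results of these data known. Named were all 10 genes, other tested genes of their families, from each list the 3 called genes with the largest change and no overlap, and the 3 genes with the highest r, of which 1 is not reported here. Coordinates come from GENCODE vM21 (99.8% of gene IDs matched) and sequences from RefSeq. Alternatives were another normalization, filter, test, adjustment, gate, score or depth, no doublets, and each library left out.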

Additional observations from a re-analysis of the deposited data

Results flagged for a closer look

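The zone effect of Cyp3a11 was 1.16 larger on the log2 scale in MASH than in chow (MASH minus chow, interaction in edgeR, adjusted p = 0.00419), and it differed by 1.0 without MASH library 2 (adjusted p = 0.115). Cyp2b10 was higher in the pericentral zone of every chow library and of no MASH library, with a fitted difference of -3.49 that the interaction test did not call (adjusted p = 0.644). Its MASH value rests on 2 UMIs. The part of free RNA in the zone values of Cyp3a11 and Cyp2b10 was not tested. These zone tests are not independent of the choice of genes.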

How the results depend on the processing

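With 2 MASH libraries, the counts of calls depended on each library. Leaving out 1 library at a time gave 216 to 3298 calls between diets (183 to 1976 higher, 33 to 1322 lower), 0 to 16 pathway genes called higher and 6 to 34 lower, 2389 to 2857 zone calls in chow, 171 to 1759 in MASH and 14 to 776 different between diets. The reported counts were 2117 (1427 higher, 690 lower), 7, 25, 3086, 988 and 328. The lowest counts between diets came from leaving out MASH library 2 and the highest from leaving out chow library 1. A lone MASH library is assumed to vary like the chow libraries. Without a filter on low counts, 3322 genes were called (1345 lower), 1576 by zone in MASH and 848 between the zone effects. Storey q-values gave 4063 (2418 higher, 1645 lower) with 14 pathway genes higher, and DESeq2 gave 3598 (1662 lower) with 11. Thinned, equal nuclei gave 3 pathway genes higher. Nuclei with Glul against those with Hal gave 1939 zone calls in chow and 199 between diets. Library totals without TMM and a marker list without Themis and Spp1 were added after seeing the data. Library totals gave 334 genes called lower. The causes were not tested.

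Among the 10 genes, the diet difference kept its sign under all 17 alternatives (15 for Cyp2b13, which the other 2 filtered out) in all but Cyp3a25 (2 of 17 alternatives), Nr1i2 (6) and Nr1i3 (2), for which both diets overlapped. Zone calls for Cyp2b10 in chow were lost in 7 of 11 alternatives, among them a score without P450 genes (adjusted p = 0.113) and the omission of possible doublets (0.0559). The Cyp3a25 call in chow was lost for Glul against Hal nuclei (0.501), and Nr1i2 in chow (0.0232) and the difference for Cyp2b9 (0.0360) were called without the filter. The omission of possible doublets, thinned equal nuclei and the second marker list each ended the calls of Alas1 and Cyp2c40, whose log2 differences were then -2.09, -2.23 and -2.12 in place of -2.28 and -9.88, -5.77 and -9.95 in place of -6.86. Those of Cyp2c40 rest on 2 UMIs in MASH. Cyp3a13 was called without the filter (adjusted p = 0.0129), by Storey q-values (0.0316) and by DESeq2 (0.0104). Shares of nuclei moved by more than 1 SD without thinning in 17 of 20 values, and levels in other classes with 2 markers in 16 of 60.

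The titles share replicate numbers 1 and 2, which give only 2 pairs, and the deviations of same-numbered libraries had r of -0.13 and -0.20. The deviations of 2 MASH libraries from their mean mirror each other, so these r cannot show whether the numbers mark pairs. A fit with the replicate block gave 1937 calls between diets (1253 higher, 684 lower) and 7 and 30 pathway genes, and it changed no call of a gene named here.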
